A study of Mus musculus with 6 samples.

Results

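The genes described here encode the enzymes and the chaperone that turn newly made collagen into a stable, cross-linked fibre. They were taken as a named list of 10 mouse genes, out of 53801 genes in the count files: the prolyl 4-hydroxylase alpha subunits P4ha1, P4ha2 and P4ha3, the lysyl hydroxylases Plod1, Plod2 and Plod3, the lysyl oxidases Lox, Loxl1 and Loxl2, and the chaperone Serpinh1. All 10 were matched by symbol and were tested. RNA sequencing covered chemically induced cardiovascular progenitor cells (ciCPCs) at passage 20 and at passage 3, with 3 libraries each. Reprogrammed mouse fibroblasts gave colonies, which were picked and grown on as these cells. Cells of both passages were wild type, from mice of mixed C57BL/6 and 129J/SvE background. Their medium held BMP4 and Activin A together with CHIR99021, which inhibits glycogen synthase kinase, and SU5402, which inhibits the FGF receptor. The labels do not say whether replicates were separate cultures or whether the passages share colonies, so the p-values rest on a spread between samples that may be purely technical. Passage and differences between cultures or harvests cannot be told apart.

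Collagen chains are modified inside the endoplasmic reticulum before they fold. Prolyl 4-hydroxylases hydroxylate prolines, which makes the triple helix stable at body temperature, and lysyl hydroxylases hydroxylate lysines that later serve in glycosylation and cross-linking. Both enzyme families use iron, 2-oxoglutarate, molecular oxygen and ascorbate. Serpinh1, also called HSP47, binds the folded procollagen helix and escorts it out of the endoplasmic reticulum. Lysyl oxidases are copper enzymes that act outside the cell, where they oxidise lysines of collagen and elastin so that cross-links can form. Several of these genes, among them P4ha1, P4ha2, Plod1, Plod2, Lox and Loxl2, are known targets of hypoxia-inducible factors in other cells.

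The promoters of the prolyl 4-hydroxylase genes are printed because this family held the steepest rise and the clearest fall among the 10 genes. Each line gives the 250 bases before the gene start, 5′ to 3′ on the gene's own strand, from RefSeq on GRCm38.p6, and capitals mark the core letters of a hypoxia response element, ACGTG or its complement CACGT. The P4ha1 stretch is chr10:59323046-59323295, that of P4ha2 is chr11:54100674-54100923 and that of P4ha3 is chr7:100285270-100285519, all on the plus strand.
P4ha1: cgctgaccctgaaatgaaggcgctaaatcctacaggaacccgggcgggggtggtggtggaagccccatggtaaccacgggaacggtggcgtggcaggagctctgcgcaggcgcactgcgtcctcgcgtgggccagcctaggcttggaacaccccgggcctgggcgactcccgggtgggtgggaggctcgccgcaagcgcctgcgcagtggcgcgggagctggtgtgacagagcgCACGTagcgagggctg
P4ha2: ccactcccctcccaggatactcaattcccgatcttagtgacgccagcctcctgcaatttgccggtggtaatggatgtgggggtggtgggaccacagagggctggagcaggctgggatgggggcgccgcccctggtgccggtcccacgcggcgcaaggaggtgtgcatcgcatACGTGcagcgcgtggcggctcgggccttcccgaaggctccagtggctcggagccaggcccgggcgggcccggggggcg
P4ha3: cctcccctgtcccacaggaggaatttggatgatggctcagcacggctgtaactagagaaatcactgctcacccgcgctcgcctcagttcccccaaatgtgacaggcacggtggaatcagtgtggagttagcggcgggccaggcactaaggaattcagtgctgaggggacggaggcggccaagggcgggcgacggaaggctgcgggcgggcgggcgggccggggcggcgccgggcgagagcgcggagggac
In P4ha1 the match lay on the opposite strand and began 16 bases before the gene start. In P4ha2 it lay on the gene's strand and began 78 bases before it, in a stretch that lies inside the span that GENCODE gives the gene. The P4ha3 stretch held no match. Of the 6 members with a promoter in the RefSeq table, 4 held a match, Plod3 and Serpinh1 besides the pair above, and Plod1 did not. Across all 32851 promoters in that table, 16.6% held the 5 letters on either strand within 250 bases. Plod2, Lox, Loxl1 and Loxl2 had no promoter in that table. The printed family was chosen by its values, and the 16.6% was not taken over promoters of similar base content or of tested genes. The matches are therefore not read as an enrichment. A match is a description of these letters and not a binding site.

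Most of the 10 genes were higher at passage 20. In a quasi-likelihood test (edgeR, p-values adjusted by Benjamini-Hochberg over all 15143 genes tested), 8 members rose, 2 fell and all 10 passed an adjusted p of 0.05. The background was high, since 74.3% of all genes passed, so passing alone says little about the members. By direction, 37.0% of all genes rose and 37.3% fell. Rises thus made up 49.8% of all calls, and 29.9% when counts were scaled by library size alone. Of the members, 6 rose at least 2-fold, against 13.4% of all genes, and 4 rose at least 4-fold, against 4.29%. The median log2 fold change of the members was 1.54, and that of all genes tested was -0.01. The libraries of the passages did not overlap in any of the 10 members, as in 77.5% of all genes. Total counts were 11387738 to 13285419 at passage 20 and 13995799 to 17721788 at passage 3. Each member had between 198 and 40375 counts in each library. Levels are CPM, counts scaled to library size with TMM factors, and levels of different genes are compared only per kilobase of exon (RPKM). No molecular identifiers are named, so precision from depth covers counting error only.

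**Figure D1:**
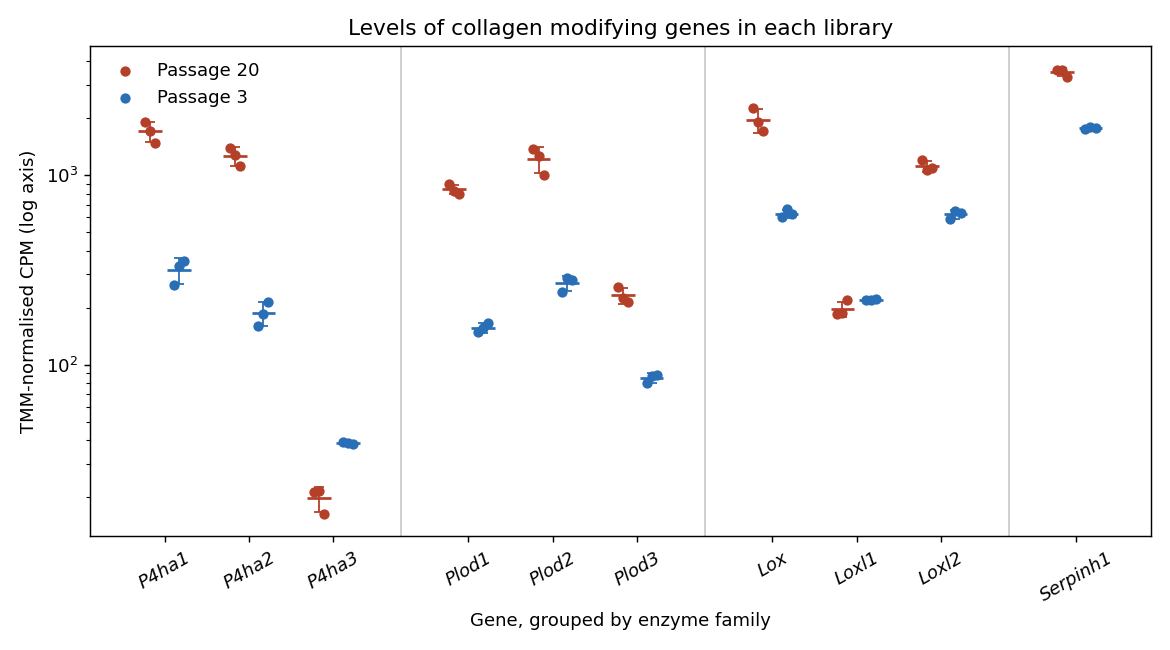
TMM-normalised CPM (log axis) of the 10 genes, grouped by family, with passage 20 left of passage 3 for each gene. Points are libraries, bars are means with SD (n = 3). P4ha1, P4ha2, Plod1 and Plod2 stand more than 4-fold higher at passage 20, while P4ha3 and Loxl1 stand lower.

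P4ha1 (ENSMUSG00000019916, GRCm38 chromosome 10, 59323296 to 59373304) encodes the most widely expressed catalytic alpha subunit of collagen prolyl 4-hydroxylase. It had 1906, 1727 and 1487 CPM in the passage 20 libraries, against 262, 334 and 354 CPM in those of passage 3. Every passage 20 library lay above every passage 3 library, with replicate 1 the highest at passage 20 and replicate 1 the lowest at passage 3. The level averaged 1707 ± 210 CPM at passage 20 and 317 ± 48.2 CPM at passage 3 (SD, n = 3 each), a 5.39-fold rise (log2 2.43, SE 0.13, adjusted p = 1.12e-06, edgeR).

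P4ha2 (ENSMUSG00000018906, chromosome 11, 54100095 to 54131665), the alpha subunit typical of cartilage, bone and endothelium, rose most of the 10 genes. Its levels were 1398, 1284 and 1117 CPM at passage 20, against 160.3, 185 and 215 CPM at passage 3. The groups were far apart, and the lowest library at passage 20 was above the highest at passage 3. The rise was 6.78-fold (log2 2.76, SE 0.12, adjusted p = 1.67e-07, edgeR), and it placed P4ha2 at rank 280 from the largest rise among 15143 genes, with P4ha1 at rank 411.

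P4ha3 (ENSMUSG00000051048, chromosome 7, 100285520 to 100319699), the alpha subunit usually found at the lowest level, moved the other way. It had 21.4, 21.5 and 16.3 CPM at passage 20, against 39.0, 38.7 and 38.0 CPM at passage 3. All 3 passage 20 libraries were below all 3 of passage 3, which lay close together. The level was 1.97-fold lower at passage 20 (log2 -0.98, SE 0.10, adjusted p = 5.9e-06, edgeR), on 630 counts at passage 20 and 1996 at passage 3.

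The make-up of the family also differed between passages. Summed over the 3 alpha subunits, the level per kilobase of exon was 694, 632 and 546 RPKM at passage 20, against 102, 123 and 133 RPKM at passage 3. P4ha3 made up 1.01% ± 0.069 of that sum at passage 20 and 10.5% ± 1.6 at passage 3 (SD, n = 3 each). P4ha2 made up 32.5% ± 0.27 at passage 20 and 25.1% ± 0.97 at passage 3. P4ha1 made up 66.4% ± 0.26 at passage 20 and 64.4% ± 1.7 at passage 3. These shares depend on the length used for P4ha2, whose exons together span 6239 bases while its longest transcript has 3060. With longest transcripts, P4ha2 made up 49.0% at passage 20 and 39.2% at passage 3, close to the share of P4ha1 at passage 20 (50.0%), so which of the pair was more abundant at passage 20 is not settled by these counts.

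The beta subunit of the enzyme is P4hb, protein disulfide isomerase, which also serves other proteins. P4hb rose 3.40-fold, with 3587 ± 271 CPM at passage 20 and 1056 ± 44.6 CPM at passage 3 (adjusted p = 1.82e-09, edgeR). Per kilobase, the ratio of P4hb to the 3 alpha subunits together was 1.95, 1.97 and 2.13 at passage 20, against 3.45, 3.08 and 2.84 at passage 3. The ratio was therefore lower in each passage 20 library than in any passage 3 library, a description with no test.

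All 3 lysyl hydroxylases rose. Plod1 (ENSMUSG00000019055, chromosome 4, 147909753 to 147936767), which acts mainly on lysines of the triple helix, had 896, 831 and 802 CPM at passage 20, against 148, 156 and 166 CPM at passage 3. Both groups were tight and far apart. Plod1 rose 5.38-fold (log2 2.43, SE 0.06), and its adjusted p, 2.65e-10 (edgeR), was the smallest among the members.

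Plod2 (ENSMUSG00000032374, chromosome 9, 92542223 to 92608428) hydroxylates lysines of the telopeptides, the short ends of the molecule where cross-links form. It had 1374, 1269 and 1003 CPM at passage 20, against 242, 288 and 281 CPM at passage 3. The passages did not overlap, although replicate 3 stood lower than the other passage 20 libraries. The rise was 4.49-fold (log2 2.17, SE 0.12, adjusted p = 7.81e-07, edgeR).

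Plod3 (ENSMUSG00000004846, chromosome 5, 136987019 to 136996648), which also carries glycosyltransferase activity, had 258, 226 and 214 CPM at passage 20, against 79.6, 87.6 and 88.6 CPM at passage 3. It rose least of the family, 2.72-fold (log2 1.44, SE 0.08, adjusted p = 2.7e-08, edgeR), again without overlap. Its exons share 529 of 4519 bases with Znhit1 on the opposite strand, which had 1670 counts against 11902 for Plod3. No source used here names a strand setting, so the Plod3 count may include Znhit1 reads or lack reads from the shared bases.

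Within the lysyl hydroxylases, Plod2 held the largest share of the summed RPKM at both passages, 56.0% ± 2.7 at passage 20 and 54.4% ± 1.3 at passage 3 (SD, n = 3 each), with overlapping libraries. Plod1 made up 31.2% ± 2.2 at passage 20 and 25.2% ± 0.98 at passage 3. Plod3 made up 12.8% ± 0.60 at passage 20 and 20.5% ± 0.32 at passage 3. Every passage 20 library had a larger share of Plod1 and a smaller share of Plod3 than any passage 3 library. With longest transcripts the Plod3 share was 11.7% at passage 20 and 18.8% at passage 3. The summed level of the family was 444, 408 and 352 RPKM at passage 20, against 84.5, 95.8 and 96.2 RPKM at passage 3.

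**Figure D2:**
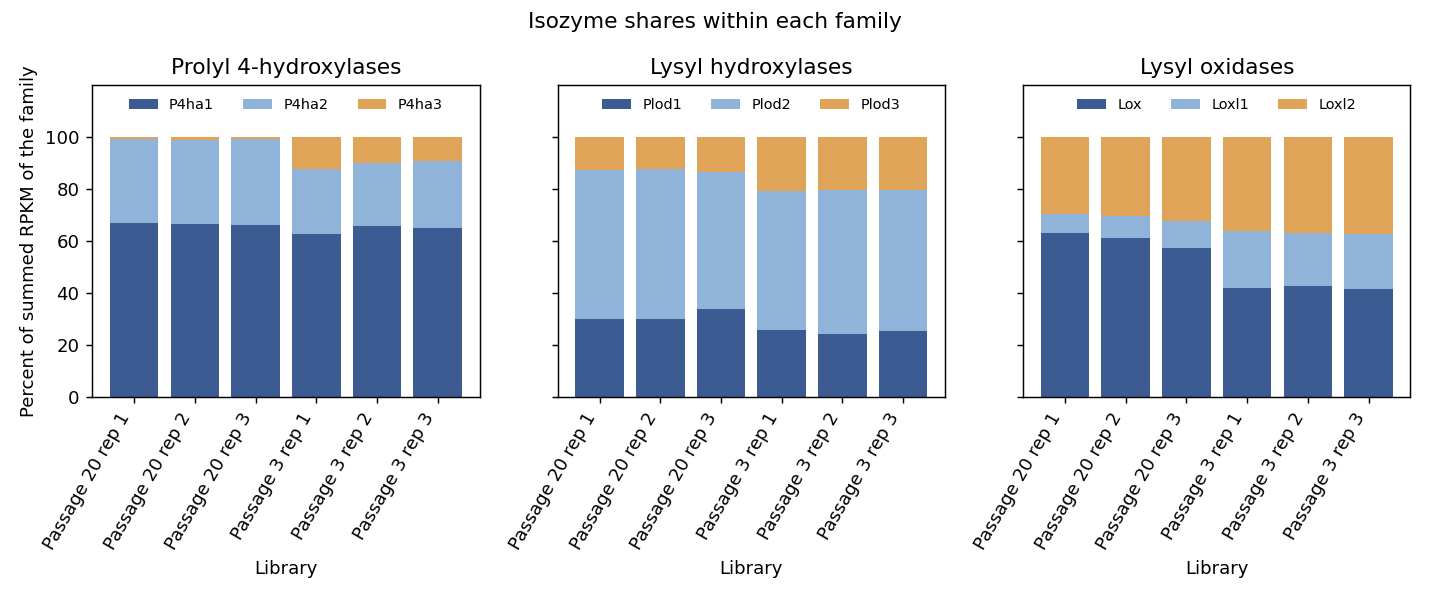
Share of each gene in the summed RPKM of its family (percent, exon-union length), one bar per library with the passage 20 libraries left of those of passage 3. The P4ha3 band averages 1.01% at passage 20 and 10.5% at passage 3, the Plod3 and Loxl1 bands are narrower at passage 20, and the Lox band is wider.

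The lysyl oxidases were split. Lox (ENSMUSG00000024529, chromosome 18, 52516067 to 52529867), the founding member, had 2278, 1906 and 1709 CPM at passage 20, against 601, 663 and 623 CPM at passage 3. The passage 20 libraries spread more widely and all lay above those of passage 3. Lox rose 3.12-fold (log2 1.64, SE 0.10, adjusted p = 4.32e-07, edgeR).

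Loxl2 (ENSMUSG00000034205, chromosome 14, 69609068 to 69695834), which is known for cross-linking basement membrane collagen IV, had 1206, 1066 and 1094 CPM at passage 20, against 587, 648 and 632 CPM at passage 3. It rose 1.80-fold (log2 0.85, SE 0.06, adjusted p = 2.94e-07, edgeR), with no overlap between passages.

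Loxl1 (ENSMUSG00000032334, chromosome 9, 58287738 to 58313186), best known for elastic fibre maintenance, changed least of the 10 genes. It had 185, 187 and 218 CPM at passage 20, against 219.7, 220.2 and 222 CPM at passage 3. Replicate 3 of passage 20 nearly reached the passage 3 libraries, which were almost equal to each other. Loxl1 was 1.12-fold lower at passage 20 (log2 -0.16, SE 0.06, adjusted p = 0.0381, edgeR). The call ended when any library other than passage 20 replicate 3 was left out (adjusted p = 0.0705 to 0.157), while without that library the log2 fold change was -0.26. It also ended with DESeq2 (adjusted p = 0.0572).

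Lox made up 60.4% ± 3.0 of the summed RPKM of Lox, Loxl1 and Loxl2 at passage 20 and 41.9% ± 0.62 at passage 3 (SD, n = 3 each). Loxl1 made up 8.89% ± 1.6 at passage 20 and 21.4% ± 0.81 at passage 3. Loxl2 made up 30.7% ± 1.5 at passage 20 and 36.7% ± 0.58 at passage 3. Lox was the most abundant of these genes at both passages. Loxl3 and Loxl4 belong to the same family but not to the list. Loxl4 rose 1.61-fold to 20.2 ± 1.33 CPM at passage 20, against 12.6 ± 0.80 CPM at passage 3 (adjusted p = 6.68e-05, edgeR). Loxl3 had 43.4 ± 1.58 CPM at passage 20 and 39.8 ± 1.13 CPM at passage 3 and did not pass (adjusted p = 0.098, edgeR), and it shares exons with Htra2 on the opposite strand.

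Serpinh1 (ENSMUSG00000070436, chromosome 7, 99345376 to 99353239) was the most abundant of the 10 genes per kilobase. It had 3610, 3614 and 3319 CPM at passage 20, against 1761, 1793 and 1782 CPM at passage 3. The passages were well apart and the passage 3 libraries nearly equal. Serpinh1 rose 1.98-fold (log2 0.98, SE 0.05, adjusted p = 2.78e-08, edgeR).

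Levels were then ordered per kilobase of summed exons. At passage 20, Serpinh1 came first with 1439 ± 69.2 RPKM, followed by P4ha1 with 415 ± 51.1 and Lox with 411 ± 60.5 RPKM, whose libraries overlapped. Plod2 (225 ± 35.5 RPKM), Loxl2 (208 ± 13.7) and P4ha2 (203 ± 22.7) came next and overlapped each other, and Plod1 followed with 125 ± 7.10 RPKM. Loxl1 (59.7 ± 5.71 RPKM) and Plod3 (51.4 ± 5.09) overlapped, and P4ha3 was last with 6.29 ± 0.95 RPKM. At passage 3, Serpinh1 again came first with 728 ± 6.60 RPKM, but Lox (132 ± 6.60) and Loxl2 (115 ± 5.92) stood next and apart from each other. P4ha1 (77.0 ± 11.7 RPKM) and Loxl1 (66.9 ± 0.35) overlapped. Plod2, P4ha2, Plod1, Plod3 and P4ha3 followed in that order without overlap, with 50.1 ± 4.53, 29.9 ± 4.39, 23.2 ± 1.32, 18.9 ± 1.10 and 12.3 ± 0.16 RPKM. The order depended on the length used. Per kilobase of the longest transcript, P4ha1 (422 ± 52.0), Lox (414 ± 60.9), P4ha2 (414 ± 46.2) and Plod2 (332 ± 52.2) overlapped at passage 20 (CPM per kilobase, SD, n = 3). Plod2 stood apart from Loxl2, which had 211 ± 14.0. At passage 3, P4ha1 (78.3 ± 11.9), Plod2 (73.8 ± 6.67), Loxl1 (66.9 ± 0.35) and P4ha2 (61.0 ± 8.94) then overlapped. Serpinh1 was first and P4ha3 last at both passages with either length.

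Libraries of the same passage also differed together across the genes. Passage 20 replicate 1 held the highest passage 20 value of 7 of the 10 members, and passage 20 replicate 3 the lowest value of 8. At passage 3, replicate 1 held the lowest value of 9 members. Such counts were not made over all genes, so they are not read as a trait of the members. The range within a passage stayed smaller than the distance between passages for each member except Loxl1, in which it reached 33.3 CPM at passage 20 while the means were 23.9 CPM apart.

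**Figure D3:**
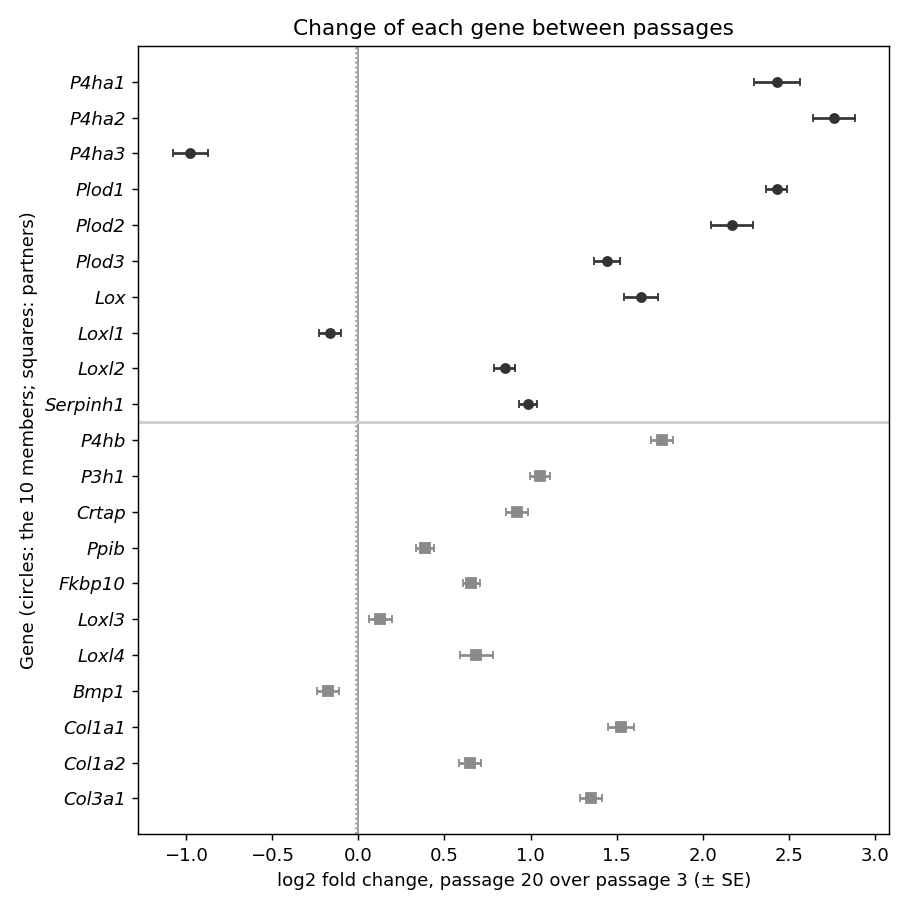
Log2 fold change with SE, passage 20 over passage 3, for the 10 members (circles) and for partner and substrate genes (squares). The dotted line marks the median of all genes tested, at -0.01. Among the members, P4ha2 lies farthest right at 2.76 and P4ha3 farthest left at -0.98.

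Substrate genes of these enzymes were compared next. Of 12 genes of fibrillar collagens and elastin, 7 rose and 5 fell, where 37.0% of all genes rose and 37.3% fell. Their median log2 fold change was 0.85, and that of all genes was -0.01. Col1a1 rose 2.88-fold, with 12540 ± 1260 CPM at passage 20 and 4353 ± 174 CPM at passage 3, Col3a1 rose 2.55-fold and Col1a2 1.57-fold. Col5a3, a minor chain of collagen V, rose 19.6-fold with 116 ± 9.62 CPM at passage 20 and 5.91 ± 0.64 CPM at passage 3, and Col24a1 and Col27a1 fell 3.30-fold and 2.44-fold (largest adjusted p of these 6 genes 3.69e-06, edgeR). Of 6 chains of collagen IV, 4 were tested and all 4 rose, among them Col4a1, 2.85-fold, and Col4a2, 2.56-fold, while Col4a3 and Col4a4 had too few counts. With library sizes only, 3 of these 4 rose, and Col4a6 did not pass.

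Ratios within a library do not depend on how libraries are scaled, and 10 were compared. For each one the passages did not overlap. The share of such ratios among other gene pairs was not taken, and 77.5% of single genes did not overlap either. The lack of overlap is therefore not read as a trait of these pairs. An exact two-sided permutation test gave p = 0.10 for each ratio (0.10 after adjustment over the 10 ratios). That is the smallest p that 3 against 3 libraries allow, so none could pass 0.05. Per kilobase, P4ha1 stood at 0.22, 0.22 and 0.21 of Col1a1 at passage 20, against 0.10, 0.12 and 0.13 at passage 3, 1.88-fold higher at passage 20. Plod2 relative to Col1a1 was 1.56-fold higher. Lox stood at 0.23, 0.21 and 0.21 of Col1a1 at passage 20, against 0.20, 0.20 and 0.19 at passage 3, which is 1.08-fold higher. Serpinh1 stood at 0.70, 0.78 and 0.79 of Col1a1 at passage 20, against 1.14, 1.08 and 1.08 at passage 3, 1.45-fold lower. Col1a1 was the only collagen chain used in the ratios. Col1a2, the other chain of collagen I, rose 1.57-fold, less than Serpinh1 (1.98-fold) and Lox (3.12-fold). Ratios to Col1a1 therefore do not stand for collagen I as a whole.

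Within families the ratio of P4ha3 to P4ha2 moved most. It was 0.031, 0.033 and 0.029 at passage 20, against 0.48, 0.42 and 0.35 at passage 3, 13.4-fold lower. The ratio of Loxl1 to Lox was 3.49-fold lower at passage 20, that of Plod3 to Plod1 1.98-fold lower and that of Loxl2 to Lox 1.72-fold lower. P4ha1 relative to P4ha2 was 1.26-fold lower and Plod2 relative to Plod1 1.20-fold lower, so both pairs moved nearly in parallel.

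**Figure D4:**
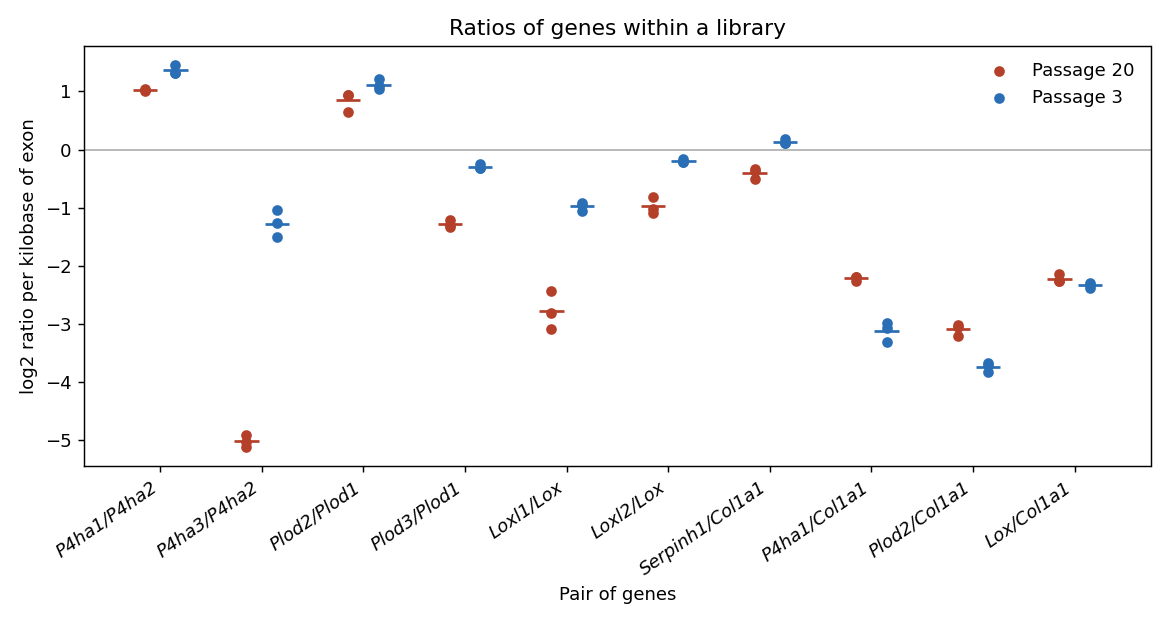
Log2 ratio of 2 genes per kilobase of exon within each library (0.5 count added), passage 20 left of passage 3 for each pair, with lines at the means. The ratio of P4ha3 to P4ha2 is 13.4-fold lower at passage 20, while Lox to Col1a1 shifts by 1.08-fold.

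The other genes that fold, modify and export procollagen mostly rose by less. Of 22 such genes, 21 rose and 1 fell, where 37.0% of all genes rose and 37.3% fell, and their median log2 fold change was 0.61. With library sizes only, 14 rose and 1 fell, and P3h3, Fkbp14 and Fkbp7 turned negative. P3h1 and Crtap, which form the prolyl 3-hydroxylation complex with the cyclophilin Ppib, rose 2.08-fold and 1.89-fold, and Ppib rose 1.31-fold, a call lost with library sizes only (adjusted p = 0.367, edgeR). Fkbp10, a prolyl isomerase partner of lysyl hydroxylation, rose 1.57-fold. Kdelr3, a receptor that returns proteins to the endoplasmic reticulum, rose 3.29-fold, and Colgalt2, a collagen galactosyltransferase, rose 2.61-fold to 12.7 ± 0.30 CPM, against 4.79 ± 1.34 CPM at passage 3. Mia3, a cargo receptor for procollagen export, fell 1.31-fold. Among these 7 genes the adjusted p was at most 6.69e-05 (edgeR).

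Genes of procollagen processing and fibre assembly outside the cell came next. Of 17 genes, 16 had enough counts, and of these 7 rose, 6 fell and 3 missed the threshold, close to the 37.0% and 37.3% of all genes. Their median log2 fold change was 0.10. With library sizes only, 6 rose and 9 fell, and the median was -0.23. Pcolce, an enhancer of C-proteinase activity, rose 1.84-fold, Fn1, fibronectin, 1.79-fold and Adamts3, an N-proteinase, 1.65-fold. Bmp1, the C-proteinase that also activates Lox, was 1.13-fold lower, at 219 ± 19.1 CPM at passage 20 and 248 ± 6.13 CPM at passage 3 (adjusted p = 0.0246, edgeR). This call ended without passage 3 replicate 1 (adjusted p = 0.0693) and without passage 20 replicate 2 (adjusted p = 0.0601), and with library sizes only the log2 fold change was -0.51. Its relative Tll1 was 22.4-fold lower, at 1.13 ± 0.20 CPM at passage 20 and 25.2 ± 2.39 CPM at passage 3. Tgm2, a transglutaminase, fell 2.99-fold and Furin, a proprotein convertase, 2.13-fold (largest adjusted p of Pcolce, Fn1, Adamts3, Tll1, Tgm2 and Furin 4.05e-05, edgeR).

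Most hypoxia targets outside the list rose too. Of 18 targets, 17 rose and 1 did not pass, with a median log2 fold change of 2.75, where 37.0% of all genes rose. Like the other lists, this one was chosen with earlier results of these data known, so that share is not an independent comparison. Adm, adrenomedullin, rose 58.5-fold, with 176 ± 26.0 CPM at passage 20 and 2.96 ± 0.63 CPM at passage 3, Ankrd37 rose 15.2-fold and Bhlhe40, a transcription factor, 14.0-fold. The summed level of the 18 targets was 13594 to 14840 CPM at passage 20, against 2456 to 3106 CPM at passage 3. A further list of 8 genes held 5 dioxygenases outside collagen modification, of which 3 rose and 2 fell, and the hypoxia-inducible factor subunits Hif1a, Epas1 and Hif3a, which rose 1.27-fold, 1.55-fold and 1.26-fold. With library sizes only, Hif1a and Hif3a did not pass. Egln1 and Egln3 were also among the 18 targets. Egln3, a prolyl hydroxylase that acts on hypoxia-inducible factors and not on collagen, rose 13.2-fold, Jmjd6, a lysyl hydroxylase of other proteins, 6.01-fold and Egln1 4.33-fold, while Egln2 and Hif1an fell 1.90-fold and 1.86-fold. Of 10 genes tied to TGF-beta, 7 rose and 2 fell (5 and 3 with library sizes only), with Ltbp2 4.26-fold higher and Tgfb2 2.40-fold lower. The adjusted p was at most 0.00335, for Hif3a, among the genes named from these lists (edgeR). The part of oxygen supply or of TGF-beta in the members' values was not tested.

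Markers of the labelled cells and of others were read beside these values. All 9 cardiac progenitor markers were tested, 4 rose and 5 fell (3 and 5 with library sizes only). Nkx2-5 rose 4.57-fold, with 5.24 ± 0.37 CPM at passage 20 and 1.15 ± 0.21 CPM at passage 3, Mef2c rose 2.68-fold and Gata4 1.70-fold, all cardiac transcription factors. Isl1, which marks progenitors of the second heart field, fell to 7.45 ± 0.53 CPM at passage 20, against 63.2 ± 5.72 CPM at passage 3, and Pdgfra and Tbx5 fell 2.45-fold and 1.66-fold. Of 9 fibroblast markers, 5 rose, 2 fell and 2 were not tested, where 37.0% of all genes rose and 37.3% fell. Postn was among the 5, at 1.19-fold, and lost its call under 2 other scalings and when any single library other than passage 20 replicate 3 was left out (adjusted p = 0.0564 to 0.26), with a negative sign under library sizes only, which left 4 rises. Their summed level was 2567 to 3032 CPM at passage 20 and 2056 to 2126 CPM at passage 3. Within that list Lum and Dcn rose, Thy1 and Pdgfrb fell, and S100a4 was at 0 counts in all 6 libraries. S100a4 shares 302 of its 584 exon bases with Gm42674 on the same strand, also at 0 counts, so that 0 does not show that S100a4 was not expressed. Bone and cartilage markers, which collagen-secreting cells could carry, summed to 84.4 to 107 CPM at passage 20 and 118 to 134 CPM at passage 3, with 3 of 9 higher, 4 lower and 2 not tested (2 higher and 4 lower with library sizes only). That sum covers opposite shifts. Acan was 14.5-fold higher, at 13.9 ± 1.60 CPM at passage 20 and 0.93 ± 0.26 CPM at passage 3. Sp7 was 8.66-fold lower, at 1.80 ± 0.54 CPM at passage 20 and 15.8 ± 0.85 CPM at passage 3. Chad, also called higher, had only 1.07 ± 0.32 CPM at passage 20 and 0.58 ± 0.14 CPM at passage 3. Its call ended with DESeq2 (adjusted p = 0.16), among other alternatives. It also ended without any single library other than passage 20 replicate 3 (adjusted p = 0.0651 to 0.186, edgeR). The Sox9 fall lost its call without the low-count filter (adjusted p = 0.155, edgeR). It also did so without passage 20 replicate 1 or 2, or passage 3 replicate 2 or 3. Smooth muscle markers summed to 809 to 836 CPM at passage 20 and 838 to 906 CPM at passage 3, nearly all of it Acta2, which did not pass. Of the 5 markers 1 rose and 3 fell (0 and 4 with library sizes only), with Mylk 7.07-fold lower, at 8.01 ± 0.99 CPM at passage 20 and 56.6 ± 3.11 CPM at passage 3, and Myh11 4.20-fold lower. Tagln, the third that fell, shares 1241 of 1988 exon bases with Gm48529 on the opposite strand, and its call ended with DESeq2 and without passage 20 replicate 1, passage 20 replicate 2 or passage 3 replicate 3 (adjusted p = 0.0501 to 0.0705). Cardiomyocyte, endothelial and immune markers summed to at most 9.1 CPM each in any library, and Emcn, Ptprc and Cd3e were at 0 counts in all 6. In bulk RNA, more cells of a type and more RNA per cell cannot be told apart, and the part of the fibroblast markers in the members' values was not tested.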

How the data were processed

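The submitters' processing notes list HISAT2 2.0.5, SAMtools, HTSeq, DESeq2 and GRCm38 for the 3 libraries of each passage, without their roles. No source used here names a strand setting or annotation release. The authors deposited counts per gene as whole numbers. They also deposited log2 values of unstated transformation, used only as an alternative. Series-wide tables were not used.

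GENCODE M21 (GRCm38) gave symbols, positions and exon lengths for 53706 of 53801 identifiers. After edgeR's filterByExpr, 15143 genes remained. The test was the robust quasi-likelihood test of edgeR 4.0.16 in R 4.3.3, on TMM factors of 0.873 to 0.917 (passage 20) and 1.12 to 1.13 (passage 3), with Benjamini-Hochberg adjustment over all genes and a threshold of 0.05. The SE of a log2 fold change is its size divided by the square root of F. RPKM is CPM per kilobase of summed exons, and 0.5 count was added for log2 ratios within a library. The alternatives were other scalings, DESeq2 1.42.0, limma 3.58.1 (voom, and on the deposited log2 values), other filters, each library left out, a replicate block and a threshold of 0.01.

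The members and the gene lists were chosen with earlier results of these data known. All members are named. From each list, up to 3 genes per direction with the largest change and at least 5 CPM in the higher group could be named, plus P4hb, Col1a1, Col1a2, Col3a1, P3h1, Crtap, Ppib, Fkbp10, Bmp1, Loxl3 and Loxl4. Acta2, Myh11, Tagln, Postn, Chad, P3h3, Fkbp14, Fkbp7, Col4a3, Col4a4, Col4a6, Hif1a, Epas1, Hif3a and markers at 0 were named after their values were seen. Not every gene that this rule covers is reported here. The test was also tried on simulated data.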

Additional observations from a re-analysis of the deposited data

How the results depend on the processing

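The direction of all 10 members was kept under all 16 alternatives run for each, and 152 of 160 values stayed on the same side of the threshold. All 8 exceptions concerned Loxl1. Its fall lost its call with DESeq2 (log2 -0.16, adjusted p = 0.0572), with limma on the deposited log2 values (log2 -0.16, adjusted p = 0.0532), at a threshold of 0.01 (log2 -0.16), and when any single passage 3 library, or passage 20 replicate 1 or 2, was left out. Without single libraries its log2 fold change ranged from -0.26, without passage 20 replicate 3, to -0.12, without passage 20 replicate 1, and the cause was not tested. Other scalings made the Loxl1 fall larger. It was -0.49 with library sizes only (adjusted p = 0.000129, edgeR) and -0.24 with upper-quartile factors (adjusted p = 0.00642, edgeR). With library sizes only, all genes together had a median log2 fold change of -0.34, and 3528 genes rose instead of 5604, while 8273 fell instead of 5641, so 29.9% of calls were higher instead of 49.8%. In that setting the members' log2 fold changes ran from -1.31 (P4ha3) to 2.43 (P4ha2). The 10 ratios kept their direction under 9 alternatives each, which could hardly have come out otherwise. Another gene length shifts every library alike, and other added counts are small beside the members' counts. Where the passages do not overlap, leaving out a single library cannot reverse the direction. The deviations of same-numbered replicates had correlations of 0.01, -0.03 and 0.05 across 15143 genes. Such values cannot show whether same-numbered libraries share a colony, culture or harvest. With the replicate block, 5521 genes rose and 5582 fell, Loxl1 had a log2 fold change of -0.17 (adjusted p = 0.0319, edgeR), and every member kept its call.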
